A study of Mus musculus with 12 samples.

Results

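The transcripts described here are those of the apelin receptor gene Aplnr and of the genes of its peptide ligands, Apln and Apela, in hearts of mice that were wild type (WT) or labelled PDE10A knockout (KO). They were taken by gene symbol, and the 3 genes were chosen with their levels in these libraries known, so their levels are given as a description with no p-value. All 3 symbols were among the 55453 in the count files, and 2 of them, Aplnr and Apln, were among the 14757 genes with enough reads to be fitted; Apela was not. The apelin receptor, also called APJ, is a G protein-coupled receptor best known from endothelial cells of veins, capillaries and growing vessels. Apelin, encoded by Apln, is cut from a precursor and in the heart is known for vasodilation and for strengthening contraction, and Apela encodes the second ligand, ELABELA, known above all from the embryo. Apelin is also made by adipocytes.

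The libraries were made from poly(A) RNA of heart tissue of C57BL/6J mice, with 3 mice in each of 4 groups: KO mice given doxorubicin (DOX), KO mice given vehicle, WT mice given DOX and WT mice given vehicle. DOX, an anthracycline used against cancer that injures the heart, was given as a single intraperitoneal dose of 15 mg/kg, with 7 days of treatment. The protocol also has a pretreatment arm with TP-10, a PDE10A inhibitor, which no library used here is labelled with, and the vehicle was DMSO with β-cyclodextrin. The age of the mice, how the Pde10a allele was made and whether it is absent from all cells are not given in the labels. The protocol allows mice of either sex, and in all 12 libraries the female transcript Xist stayed at 0.236 CPM or less (CPM is the count scaled to a common library size) while Y-linked Ddx3y was 24.5 CPM or more; Apln is X-linked. Mice are named by the numbers in the titles. The KO vehicle mice, veh_3393 to veh_3395, carry numbers unlike those of the other mice, which run from 1 to 24. A difference in their source and the KO vehicle group itself cannot be told apart. Some titles carry a suffix whose meaning is not given. WT DOX mouse 21, WT vehicle mice 2 and 3 and KO vehicle mouse veh_3393 lack it, and the other mice have it. Within the WT DOX group, the lack of the suffix and mouse 21 itself cannot be told apart.

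Library totals ranged from 23846398 to 32921876 counts. Pde10a, the targeted gene, averaged 8.61 ± 0.426 CPM in KO DOX and 10.1 ± 1.54 CPM in KO vehicle hearts, against 2.18 ± 0.465 CPM in WT DOX and 2.08 ± 1.21 CPM in WT vehicle hearts (SD, n = 3 each). The whole-gene count was thus higher in the libraries labelled KO. With the kind of allele not given, this count cannot show whether the gene is disrupted, and "KO" below means the libraries labelled KO. Endothelial RNA was present throughout: Pecam1, an endothelial adhesion molecule, stood between 130.1 and 174 CPM in all 12 libraries. KO DOX mouse 18 and KO vehicle mouse veh_3394 stood apart in the summed CPM of 5 atrial genes, at 1611 and 2170, against 71.6 to 271 in the other libraries.

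Positions are from GENCODE M21 on GRCm38, matched by symbol. Aplnr lies on chromosome 2 from 85136225 to 85139923 on the plus strand, with 2 exons in its longest transcript model. Apln lies on chromosome X from 48025146 to 48034853 on the minus strand, with 3 exons. Apela lies on chromosome 8 from 65028417 to 65037336 on the minus strand, with 4 exons, and overlaps the noncoding gene Gm45886 on the same strand. No other annotated gene overlaps Aplnr or Apln.

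The 250 bases before the start of each ligand gene are shown to set the promoter of the expressed ligand beside that of the ligand with almost no reads. They are RefSeq sequences on GRCm38.p6, 5′ to 3′ on the gene's own strand, Apln at chrX:48034854-48035103 and Apela at chr8:65037337-65037586, both minus strand, with capitals for the GC box GGGCGG.
Apln: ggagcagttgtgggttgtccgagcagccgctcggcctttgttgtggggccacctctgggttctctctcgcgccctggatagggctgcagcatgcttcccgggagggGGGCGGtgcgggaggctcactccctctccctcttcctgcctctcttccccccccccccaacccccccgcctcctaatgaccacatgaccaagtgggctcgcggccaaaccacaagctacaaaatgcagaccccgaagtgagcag
Apela: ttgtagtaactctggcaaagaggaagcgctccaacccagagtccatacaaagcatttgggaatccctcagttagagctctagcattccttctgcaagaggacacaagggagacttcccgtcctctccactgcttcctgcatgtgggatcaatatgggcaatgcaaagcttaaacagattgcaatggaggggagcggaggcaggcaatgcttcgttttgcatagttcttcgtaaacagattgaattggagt
The Apln window was 65.2% G or C and held 1 GC box, on the gene's strand, and the Apela window was 48.0% G or C and held none on either strand. Of 32851 RefSeq windows of the same length, 32.7% held a GC box. The letters ACGTG, the core of the hypoxia response element, were in neither window on either strand, and 16.6% of all windows held them. The ETS core GGAA was found 3 times in the Apln window and 5 times in the Apela window, counting both strands, and 93.4% of all windows held it; no GC box overlapped it. These matches describe letters, not binding.

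Aplnr was lowest in WT hearts after DOX and highest in WT hearts given vehicle, with both KO groups between. It had 195, 42 and 46 counts in WT DOX mice 21, 22 and 24, or 7.00, 1.53 and 1.32 CPM. In WT vehicle mice 1, 2 and 3 it had 670, 889 and 565 counts, or 29.8, 30.7 and 22.4 CPM. Every WT DOX library lay below every WT vehicle library, and mouse 21 lay well above the other WT DOX mice. The fitted log2 fold change for DOX in WT was -3.09 (SE 0.48, 95% interval -4.13 to -2.05), a level 8.50-fold lower. In all, 15.8% of tested genes had all WT DOX libraries below all WT vehicle libraries, and 18.6% passed an adjusted p of 0.05 in either direction; since the gene was chosen on such values, nothing is read from this. The difference was larger without mouse 21, at -4.28. Over the fits that left out 1 library it ran from that value to -2.69. A bulk library cannot tell fewer cells of a type from less RNA per cell, which holds for every endothelial value here.

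In KO hearts Aplnr differed little between treatments. It had 274, 256 and 391 counts in KO DOX mice 18, 19 and 20, or 10.8, 9.36 and 15.1 CPM. KO vehicle mice veh_3393, veh_3394 and veh_3395 had 375, 312 and 346 counts, or 14.2, 11.8 and 14.8 CPM. The groups overlapped, with KO DOX mouse 20 the highest of the 6 libraries. The log2 fold change was -0.21 (SE 0.44), with a 95% interval from -1.16 to 0.74, so that neither a lower nor a higher level under DOX is shown.

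Set against WT, Aplnr was lower in KO hearts under vehicle and higher in KO hearts under DOX. Under vehicle it averaged 13.6 ± 1.60 CPM in KO and 27.6 ± 4.55 CPM in WT hearts (SD, n = 3 each), a log2 fold change of -1.02 (SE 0.43, 95% interval -1.97 to -0.08), and the libraries did not overlap, as for 14.8% of tested genes in that direction. Under DOX it averaged 11.7 ± 2.96 CPM in KO and 3.29 ± 3.22 CPM in WT hearts, a log2 fold change of 1.85 (SE 0.47, 95% interval 0.83 to 2.87). Those libraries did not overlap either, as for 9.86% of tested genes in that direction, with KO DOX mouse 19 at 9.36 CPM the nearest to WT DOX mouse 21 at 7.00 CPM. Without mouse 21 the value under DOX was 3.04, and the fits that left out 1 library gave 1.46 to 3.04. The interaction, taken as the DOX fold change of KO hearts minus that of WT hearts on the log2 scale, was 2.88 (SE 0.64, 95% interval 1.49 to 4.27). It was 4.07 without mouse 21, and 2.48 to 4.07 over the fits that left out 1 library. In order of mean level the groups ran WT vehicle, KO vehicle, KO DOX and WT DOX, and the KO vehicle and KO DOX groups were the only neighbours whose libraries overlapped.

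**Figure D1:**
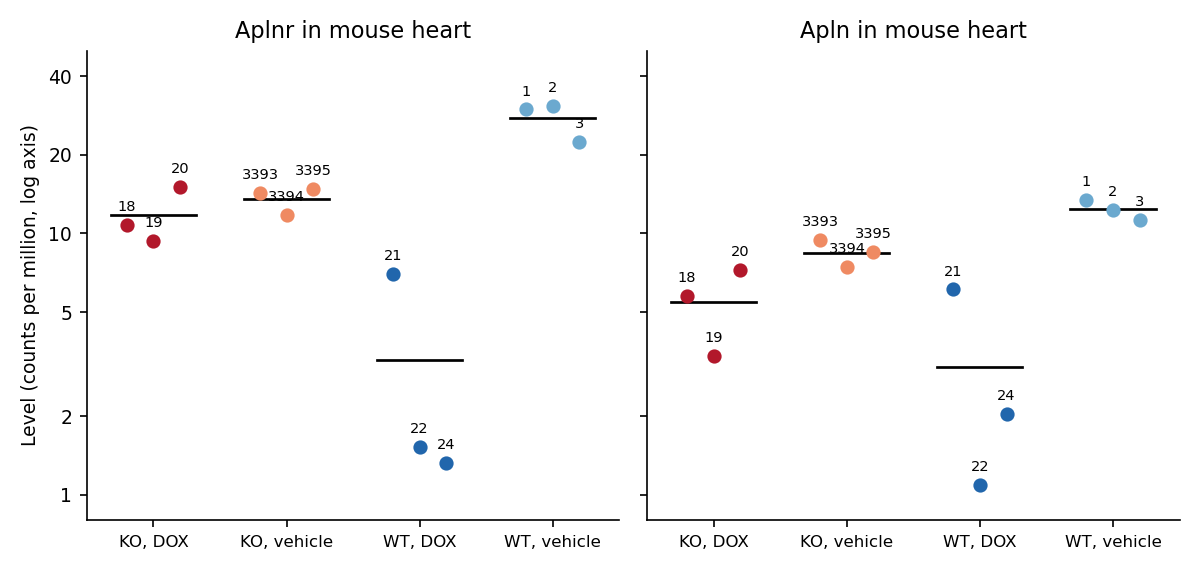
Levels of Aplnr and Apln in CPM on a log axis, 1 point per library with the mouse number, and a bar at each group mean (n = 3). WT DOX mice 22 and 24 have the lowest value of both genes, and the 3 WT vehicle mice the highest.

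Apln, the ligand gene, had the same order of group means. Its differences were smaller than those of Aplnr in every comparison but DOX in KO. It had 170, 30 and 71 counts in WT DOX mice 21, 22 and 24, or 6.11, 1.09 and 2.04 CPM. WT vehicle mice 1, 2 and 3 had 303, 357 and 284 counts, or 13.5, 12.3 and 11.3 CPM. The WT groups did not overlap, as for 15.8% of tested genes in that direction, and mouse 21 was again the highest of the WT DOX mice. The log2 fold change for DOX in WT was -2.01 (SE 0.45, 95% interval -2.99 to -1.03), 4.03-fold lower. It was -2.95 without mouse 21, and -2.95 to -1.61 over the fits that left out 1 library.

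In KO hearts Apln had 146, 93 and 189 counts in DOX mice 18, 19 and 20, or 5.75, 3.40 and 7.28 CPM. KO vehicle mice veh_3393, veh_3394 and veh_3395 had 248, 197 and 199 counts, or 9.42, 7.43 and 8.49 CPM. Every KO DOX library lay below every KO vehicle library, as for 8.05% of tested genes, but mouse 20 and mouse veh_3394 lay next to each other. The log2 fold change was -0.63 (SE 0.44), with a 95% interval from -1.57 to 0.32 that includes 0.

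Under vehicle Apln averaged 8.45 ± 0.997 CPM in KO and 12.4 ± 1.11 CPM in WT hearts (SD, n = 3 each). The libraries did not overlap, as for 14.8% of tested genes in that direction. The log2 fold change was -0.55 (SE 0.42, 95% interval -1.47 to 0.37). Under DOX it averaged 5.48 ± 1.95 CPM in KO and 3.08 ± 2.66 CPM in WT hearts, and WT DOX mouse 21 lay within the KO DOX range. That log2 fold change was 0.83 (SE 0.45, 95% interval -0.15 to 1.82); it was 1.78 without WT DOX mouse 21, 0.44 without WT DOX mouse 22 and 0.56 without KO DOX mouse 20. The interaction was 1.38 (SE 0.62, 95% interval 0.03 to 2.73). It was 2.33 without mouse 21, and 0.99 to 2.33 over the fits that left out 1 library.

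**Figure D2:**
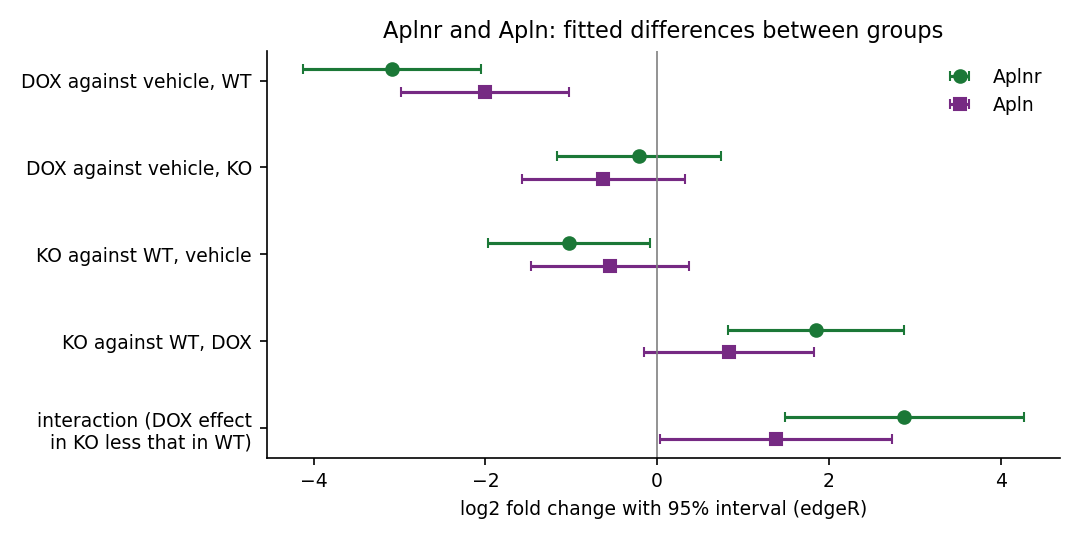
Fitted log2 fold changes of Aplnr (circles) and Apln (squares) in the 5 comparisons, with 95% intervals from the edgeR fit to 12 libraries. Both genes have their lowest value for DOX in WT, at -3.09 and -2.01, and intervals that include 0 for DOX in KO.

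Apela had 1 count in KO DOX mouse 18 and 1 in KO vehicle mouse veh_3394, and 0 counts in the other 10 libraries. A count of 0 allows up to 3 counts per library, which is between 0.0863 and 0.133 CPM, a limit that covers counting error only. No difference in Apela between groups was detectable at this depth. Its log2 fold change was not fitted in the main fit, whose filter removed it.

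Receptor and ligand transcripts were correlated over the 12 libraries. On the log2 CPM scale, the correlation of Aplnr with Apln was 0.945 by Pearson and 0.916 by Spearman over the 12 libraries, which share the 4 groups and their depth scaling. Without WT DOX mice 22 and 24, the libraries farthest from the Aplnr median, r was 0.850 and rho 0.867. After each group's mean was taken off, r was 0.888. These values are a description of genes picked together and carry no test. Per kilobase of annotated exon, the level of Aplnr divided by that of Apln was 0.98, 1.19 and 0.55 in WT DOX mice 21, 22 and 24, and 1.88, 2.12 and 1.69 in WT vehicle mice 1, 2 and 3. It was 1.60, 2.34 and 1.76 in KO DOX mice 18, 19 and 20, and 1.29, 1.35 and 1.48 in KO vehicle mice veh_3393, veh_3394 and veh_3395. The ratio was thus lowest in the WT DOX libraries, where it rested on as few as 42 receptor and 30 ligand counts in mouse 22.

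**Figure D3:**
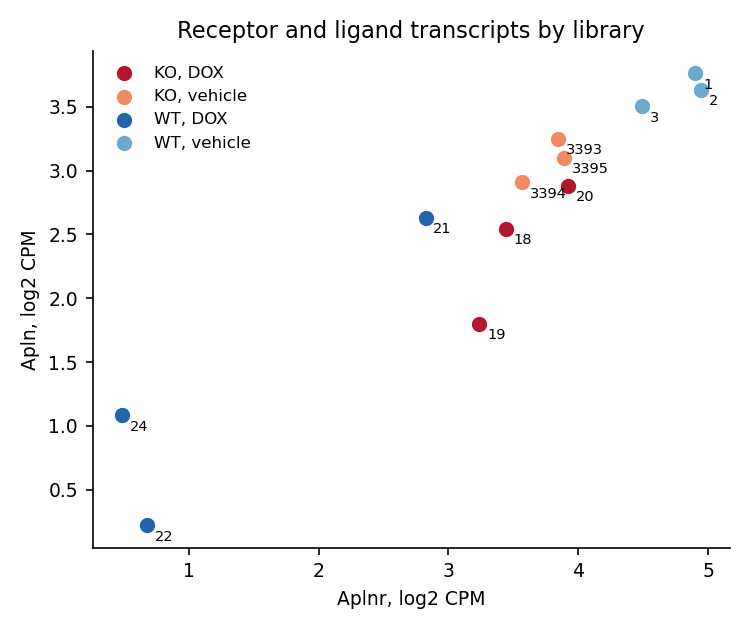
Apln against Aplnr in log2 CPM, 1 point per library, coloured by group and marked with the mouse number. The points run from WT DOX mice 22 and 24 at the lower left to the 3 WT vehicle mice at the upper right.

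By a fixed rule, the genes most like Aplnr by Pearson r of log2 CPM over the 12 libraries, among 10992 genes, included Cars2, Acp6, Marcks, Ckb, Stoml1, Ehd2 and the mitochondrial tRNA gene mt-Ti, with r from 0.948 to 0.961. Apln was in rank 9. Marcks, a protein kinase C substrate, had 26.3, 14.0 and 13.6 CPM in WT DOX mice 21, 22 and 24, against 42.2, 57.6 and 44.9 CPM in WT vehicle mice 1, 2 and 3. Cars2, the mitochondrial cysteinyl-tRNA synthetase, had 29.2, 20.8 and 20.4 CPM in the same WT DOX mice, against 38.4, 45.5 and 36.9 CPM in the WT vehicle mice. The genes most like Apln included Znrf1, Ung, Mdga1 and Mhrt, with r from 0.950 to 0.954. Mhrt is antisense to Myh7, and the strand setting of the counting is not given, so its reads cannot be told from those of its partner.

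The receptor was set beside endothelial genes in general, since Aplnr marks endothelial cells. The median of 12 pan-endothelial genes stood at -0.20, -0.27 and -0.50 from the WT vehicle mean on the log2 scale in WT DOX mice 21, 22 and 24. Aplnr stood at -1.95, -4.10 and -4.29 from its own WT vehicle mean in the same mice. Apln less the pan-endothelial median was -0.81, -3.14 and -2.05 there. In KO vehicle hearts the pan-endothelial median lay between -0.51 and -0.23, and Aplnr between -1.21 and -0.89. In KO DOX hearts the median lay between -0.43 and -0.31, and Aplnr between -1.54 and -0.86. Aplnr was thus lower than the pan-endothelial median in every KO and every WT DOX library, by the most in WT DOX mice 22 and 24. The median of 6 capillary genes lay nearer to it in some libraries. In KO DOX mice 18, 19 and 20 the capillary median was -1.19, -0.33 and -0.71, and Aplnr -1.34, -1.54 and -0.86. In WT DOX mice 21, 22 and 24 the capillary median was -0.60, -0.14 and -0.60. The median of 6 venous genes was 0.62, 0.59 and 0.46 in KO vehicle mice veh_3393, veh_3394 and veh_3395. Aplnr was -0.94, -1.21 and -0.89 there. Between KO and WT under vehicle, 5 of these venous genes were positive and 1 negative, and 0 passed in edgeR. In WT DOX mice 21, 22 and 24 the venous median was 0.10, -0.01 and -0.10, and in KO DOX mice 18, 19 and 20 it was 0.30, -0.62 and -0.04. Aplnr less the pan-endothelial median averaged -3.13 ± 1.19 in WT DOX and -0.88 ± 0.32 in KO DOX hearts, and -0.65 ± 0.098 in KO vehicle and 0.00 ± 0.31 in WT vehicle hearts (SD, n = 3 each, log2). Among 42 endothelial genes and the pair of members, chosen with these values known, Aplnr and Apln had the 2 lowest fold changes for DOX in WT, and Aplnr the highest for KO against WT under DOX. These ranks leave out the 4 endocardial genes. One of them, Hapln1, with 54 counts over all libraries, was at -3.04 for DOX in WT, below Apln. It was at 3.14 for KO against WT under DOX, above Aplnr. Of the 4, 2 were negative and 2 positive in the former comparison, and 1 negative and 3 positive in the latter. Under vehicle Cldn5 (log2 -2.11) was below Aplnr, and Apln was in rank 9 from the lowest of 44. For DOX in KO, Aplnr was in rank 14 and Apln in rank 4.

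**Figure D4:**
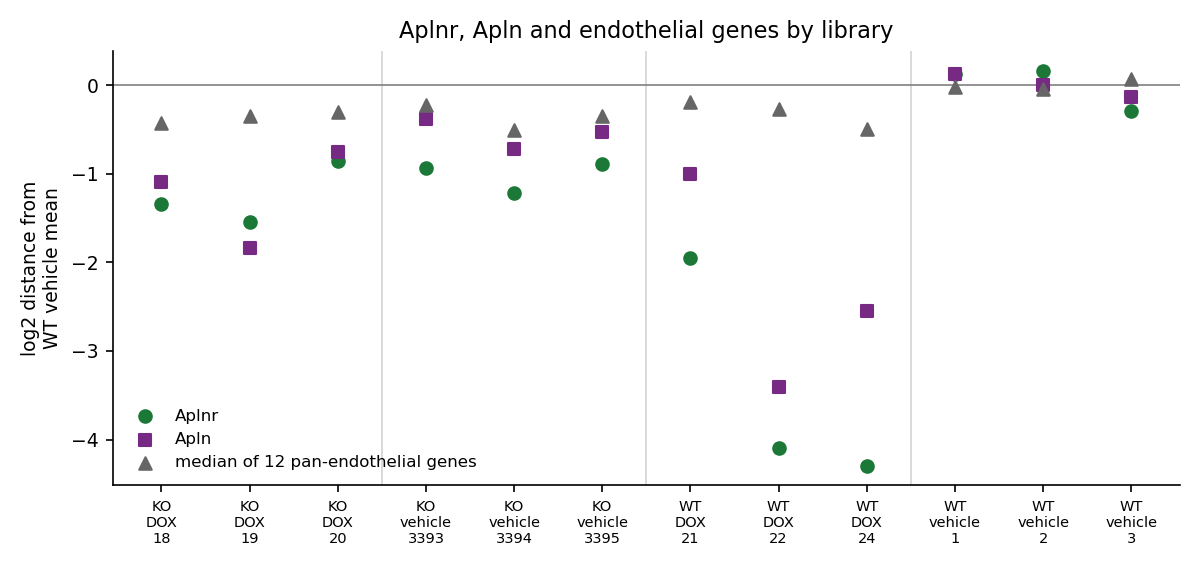
Distance of Aplnr, Apln and the median of 12 pan-endothelial genes from the WT vehicle mean, in log2 CPM, 1 column per library. The pan-endothelial median is at or above -0.51 in every library, while Aplnr reaches -4.29 in WT DOX mouse 24.

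Of the 42 tested endothelial genes (pan-endothelial, capillary, venous, arterial, angiogenic and lymphatic), 7 fell and 0 rose with DOX in WT. That was 16.7% against 18.6% of all tested genes in either direction, of which 9.2% fell and 9.39% rose. The median log2 was -0.20 against 0.00. The 7 were Fabp4 (log2 -0.98, adjusted p = 0.00906), a fatty acid binding protein of capillary cells, Egfl7 (-0.96, adjusted p = 0.0101), Eng (-0.65, adjusted p = 0.0156), Tie1 (-0.54, adjusted p = 0.0215), Cldn5 (-1.29, adjusted p = 0.0246) and Gpihbp1 (-0.53, adjusted p = 0.0384), and Emcn (-0.65, adjusted p = 0.0487), which the naming rule left out and which was added after its value was seen. Pecam1 (-0.11, adjusted p = 0.36), Cdh5 (-0.41, adjusted p = 0.141), the venous regulator Nr2f2 (-0.13, adjusted p = 0.631), the capillary enzyme gene Car4 (-0.40, adjusted p = 0.259) and the tip cell marker Esm1 (-0.15, adjusted p = 0.797) did not pass. None of the 6 tested venous genes passed, with a median of -0.11. The count of endothelial calls was 11, 2 and 1 without WT DOX mice 21, 22 and 24, and 4 without either WT vehicle mouse 2 or mouse 3. The share of all tested genes moved too. It was 25.6%, 1.23% and 1.22% without WT DOX mice 21, 22 and 24, and 3.43% and 4.92% without WT vehicle mice 2 and 3. With only the WT libraries in the fit, 0 endothelial and 0 pathway genes passed in edgeR, where 0.141% of all genes did. At an unadjusted p below 0.05 there were 14 and 16 in that fit, against 27.6% of all genes.

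Adipocytes are another source of apelin, and their markers varied within groups. None of 5 tested adipocyte genes passed for DOX in WT, where all 5 had negative log2 fold changes (-3.37 to -1.90, median -2.78). Between KO and WT under DOX all 5 were positive (median 3.97), with 3 at an unadjusted p below 0.05 and 0 adjusted in edgeR. Both signs are those of Apln. With DOX in KO all 5 were positive (median 1.38), while Apln was at -0.63. Between KO and WT under vehicle 4 were negative and 1 positive (median -0.10), with Apln at -0.55. The part of adipocyte RNA in the Apln levels was not tested. The 6 markers, with Lep too low to test, summed to between 0.400 and 2.79 CPM in WT DOX and between 0.133 and 20.5 CPM in WT vehicle hearts. They summed to between 0.585 and 69.4 CPM in KO DOX and between 0.266 and 23.6 CPM in KO vehicle hearts. Mitochondrially encoded genes took 24.4% to 30.3% of counts in WT DOX and 19.5% to 33.6% in WT vehicle libraries; their part in the result was not tested. Among lists for other heart cells, 1 of 6 cardiomyocyte genes and 1 of 6 pericyte and smooth muscle genes fell with DOX in WT, and 0 of 6 fibroblast, 0 of 6 macrophage, 0 of 4 endocardial and 0 of 5 mesothelial genes passed, beside 18.6% of all tested genes.

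The rest of the pathway was described with 6 lists holding 57 genes, of which 53 were tested. Klkb1, Ren1, Agtr1b and Agtr2 had 9, 4, 1 and 3 counts over all libraries and were not. For DOX in WT, 5 rose and 5 fell, 18.9% against 18.6% of all tested genes (9.39% rose and 9.2% fell), with a median log2 of 0.15. None of the 4 tested genes that process or degrade the peptides passed: Furin, the protease that cuts proapelin, had log2 0.57 (adjusted p = 0.051), and Mme, neprilysin, 0.20 (adjusted p = 0.58). Of 9 genes of receptor coupling 1 fell, Grk2, a kinase that desensitizes such receptors (52.2 ± 3.96 CPM in WT DOX and 67.2 ± 1.42 CPM in WT vehicle hearts, SD, n = 3 each; log2 -0.36, adjusted p = 0.0178). The G protein genes Gnai2 (0.03, adjusted p = 0.81) and Gna13 (0.23, adjusted p = 0.111) and the arrestin gene Arrb2 (-0.54, adjusted p = 0.0954) did not pass.

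Among 12 genes known downstream of the receptor, 1 rose with DOX in WT, the transcription factor gene Mef2a (log2 0.48, adjusted p = 0.025). Its relative Mef2c (0.28, adjusted p = 0.0584), the shear-induced factor Klf2 (-0.42, adjusted p = 0.354), the endothelial nitric oxide synthase Nos3 (-0.08, adjusted p = 0.537), Fgf2 (-0.23, adjusted p = 0.129) and its receptor Fgfr1 (0.06, adjusted p = 0.813) did not pass. In the renin-angiotensin system, whose receptor is the closest relative of the apelin receptor, 2 of 4 tested genes rose. Agtr1a, the angiotensin II receptor, stood at 38.3, 40.8 and 43.3 CPM in WT DOX mice 21, 22 and 24, against 34.4, 22.1 and 27.6 CPM in WT vehicle mice 1, 2 and 3 (log2 0.54, adjusted p = 0.0224). The nearest libraries of these groups were WT DOX mouse 21 at 38.3 CPM and WT vehicle mouse 1 at 34.4 CPM. Agt, the angiotensin precursor, rested on mouse 22 at 22.4 CPM, with 6.21 and 7.71 CPM in mice 21 and 24 and 4.14 to 5.75 CPM in WT vehicle hearts (log2 1.23, adjusted p = 0.0447), and its call held in 1 of the 12 fits that left out 1 library.

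Of 14 hypoxia and angiogenesis genes, 2 rose and 3 fell with DOX in WT. Hif1a, the hypoxia-inducible factor subunit, rose (log2 1.01, SE 0.20, adjusted p = 0.0138), with 57.4, 85.6 and 87.8 CPM in WT DOX mice 21, 22 and 24 against 50.9, 28.1 and 35.6 CPM in WT vehicle mice 1, 2 and 3. Angpt1, a ligand of the Tek receptor, also rose (0.72, adjusted p = 0.0447). Cxcr4, a chemokine receptor of sprouting cells, fell (-1.10, adjusted p = 0.0188), with 2.80, 1.75 and 2.71 CPM in WT DOX against 6.18, 4.87 and 4.52 CPM in WT vehicle hearts. The antagonist ligand Angpt2 (-0.90, adjusted p = 0.0267) and the VEGF receptor Kdr (-0.81, adjusted p = 0.031) fell too. Vegfa (-0.15, adjusted p = 0.534), Dll4 (-0.47, adjusted p = 0.14) and Cxcl12 (-0.28, adjusted p = 0.388) did not pass. Of 10 other endothelial G protein-coupled receptors 1 fell, Lpar6, a lysophosphatidic acid receptor (log2 -0.88, SE 0.14, adjusted p = 0.00887), with 6.50, 5.68 and 5.99 CPM in WT DOX mice against 13.6, 10.3 and 9.72 CPM in WT vehicle mice. All values with a p are from edgeR's quasi-likelihood test with Benjamini-Hochberg adjustment over all tested genes. The pathway count was 17, 1 and 1 without WT DOX mice 21, 22 and 24, and 5 and 4 without WT vehicle mice 2 and 3. The share of all tested genes in the same fits was 25.6%, 1.23% and 1.22%, and 3.43% and 4.92%. Lpar6 passed in every fit that left out 1 library.

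**Figure D5:**
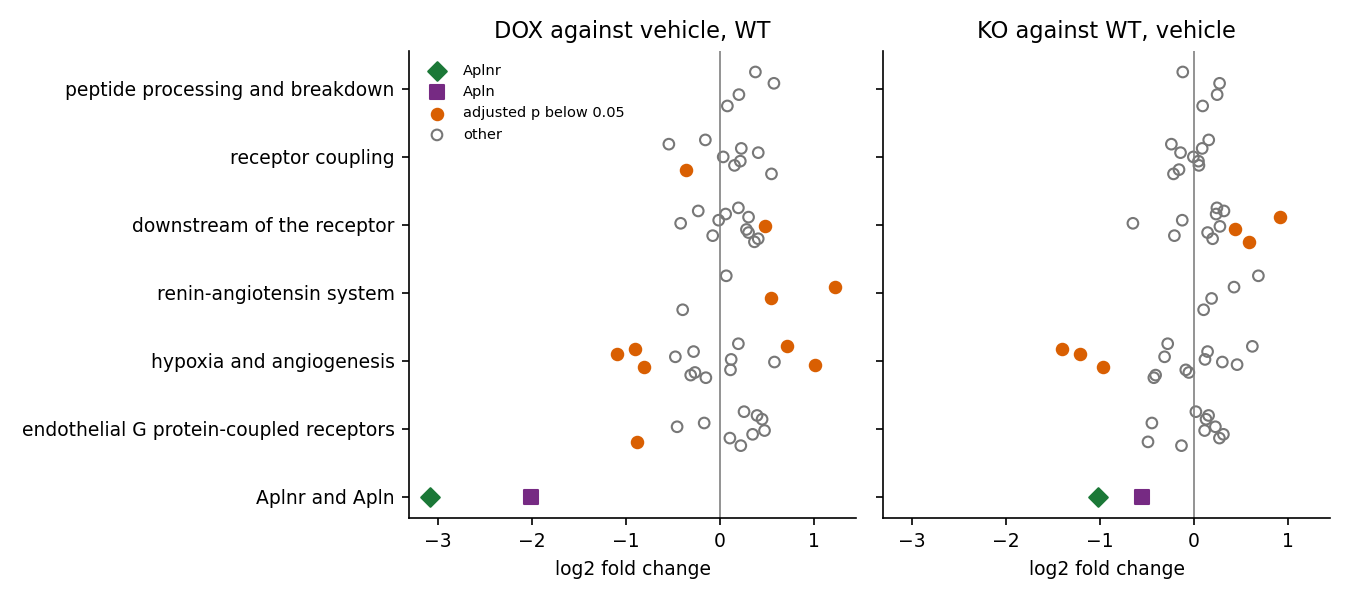
Log2 fold changes of the tested genes of the 6 pathway lists, with Aplnr and Apln in the bottom row, for DOX in WT (left) and KO against WT under vehicle (right); orange points have an adjusted p below 0.05. The list genes lie between -1.40 and 1.23, and Aplnr lies at -3.09 on the left and -1.02 on the right.

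With DOX in KO, 0 of the 53 pathway genes and 0 of the 42 endothelial genes passed in edgeR, where 0.0136% of all tested genes did. At an unadjusted p below 0.05 there were 3 higher and 2 lower pathway genes and 1 higher and 0 lower endothelial genes, against 5.35% of all tested genes. DESeq2 called 1 pathway and 0 endothelial genes (0.447% of all genes), and limma-voom 1 of each (0.596%). Hif1a had 67.0, 73.8 and 67.4 CPM in KO DOX mice 18, 19 and 20 and 53.0, 54.3 and 49.9 CPM in KO vehicle mice (log2 0.40, adjusted p = 0.985). Lpar6 had 8.94, 8.96 and 10.3 CPM in the same KO DOX mice and 7.79, 7.84 and 8.27 CPM in KO vehicle mice (log2 0.24, adjusted p = 0.997).

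Under vehicle, 3 pathway genes were higher and 3 lower in KO than in WT hearts, 11.3% against 2.88% of all tested genes (1.79% higher and 1.09% lower), with a median log2 of 0.10. This comparison shares the WT vehicle libraries with that of DOX in WT. The 3 lower ones were Angpt2 (2.35 ± 0.337 CPM in KO hearts and 6.21 ± 1.49 CPM in WT hearts, SD, n = 3 each; log2 -1.40, adjusted p = 0.0186), Cxcr4 (-1.21, adjusted p = 0.0316) and Kdr (-0.97, adjusted p = 0.0447). The 3 higher ones, all from the downstream list, were the histone deacetylase gene Hdac4 (31.6 ± 2.72 CPM in KO hearts and 16.8 ± 3.69 CPM in WT hearts; log2 0.91, adjusted p = 0.0186), Mef2c (0.44, adjusted p = 0.0361) and the AMP kinase subunit gene Prkaa2 (0.58, adjusted p = 0.0366). Of the endothelial genes 4 were lower and 0 higher, or 9.52%: Cldn5, a tight junction claudin (6.36 ± 1.45 CPM in KO hearts and 27.4 ± 12.8 CPM in WT hearts; log2 -2.11, adjusted p = 0.0131), Fabp4 (-0.89, adjusted p = 0.0193), Egfl7 (-0.74, adjusted p = 0.0406) and Eng (-0.58, adjusted p = 0.0438). The pathway count was 0 without any of the 3 KO vehicle mice, 2 without KO DOX mouse 20, and 11, 2 and 1 without WT vehicle mice 1, 2 and 3. It was also 0 without the pair of libraries high in atrial transcripts, while the endothelial count was then 3. The endothelial count was 0, 1 and 0 without KO vehicle mice veh_3393, veh_3394 and veh_3395, 2 without KO DOX mouse 20, and 8, 2 and 1 without WT vehicle mice 1, 2 and 3. Of all tested genes, 0.279%, 0.346% and 0.298% passed without those KO vehicle mice and 1.03% without KO DOX mouse 20. Without WT vehicle mice 1, 2 and 3 the share was 17.7%, 0.728% and 0.338%.

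Under DOX, 0 pathway and 0 endothelial genes passed between KO and WT in edgeR, where 0.42% of all tested genes did. At an unadjusted p below 0.05 there were 3 higher and 4 lower pathway genes and 2 higher and 3 lower endothelial genes, against 15.5% of all tested genes. DESeq2 called 3 and 0 (3.21% of all genes), and limma-voom 3 and 2 (6.71%). Fgf2 (log2 0.46, adjusted p = 0.0757) did not pass, nor did Lpar6 (0.63, adjusted p = 0.0694). For the interaction 1 of 53 pathway genes passed, Lpar6 (log2 1.12, SE 0.19, adjusted p = 0.0435), where 0.21% of all tested genes did. That call held in 3 of the 12 fits that left out 1 library, those without WT DOX mouse 21, WT vehicle mouse 1 or KO DOX mouse 18. Of the 42 endothelial genes 0 passed for the interaction in edgeR, with 10 higher and 1 lower at an unadjusted p below 0.05, where 1197 of all tested genes were higher and 1168 lower. DESeq2 called 5 endothelial genes (2.53% of all genes) and limma-voom 10 (13.9%).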

How the data were processed

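Gene counts are used as the authors deposited them, with a file for each library. The tools, per the submitters' processing notes, were fastp 0.20.0, STAR 2.7.0f and featureCounts of Subread 1.6.4. Per the labels' protocols the library kit marks strand. For the genome build, annotation and strand setting of the counting, the record is: not given in the sources used here. Of 55453 symbols, 98.3% were found in GENCODE M21.

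Groups came from the labels. Counts were filtered with filterByExpr by group and scaled by TMM, and CPM uses the TMM-scaled totals. All 12 libraries were fitted with edgeR 4.0.16 (glmQLFit, glmQLFTest; R 4.3.3), 1 mean per group, with Benjamini-Hochberg adjustment over all tested genes and a threshold of 0.05. Each SE is the absolute log2 fold change divided by the square root of the F statistic of glmQLFTest. Intervals are the log2 fold change plus or minus that SE times the t quantile of the fit. p-values and intervals measure the spread between the mice of a group as labelled, with 1 spread per gene shared by the 4 groups. For Aplnr the SD of log2 CPM was 1.30 in WT DOX, 0.35 in KO DOX, 0.25 in WT vehicle and 0.17 in KO vehicle hearts. Its intervals therefore do not follow the wider spread of WT DOX hearts. The fits were tested on simulated data.

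The 3 genes, the lists and the comparisons were chosen with earlier results of these data known. The list genes named are those called, at most 4 per list and comparison in order of p, plus a set named whatever the p; some genes that these rules name are not reported here. Log2 CPM has a prior count of 2, and likeness was computed over genes averaging 1 or more on that scale. Alternatives were DESeq2 1.42.0, limma-voom (limma 3.58.1), other scalings and filters, the groups compared alone, a suffix in the titles of unstated meaning, and leaving out each library. A fit without the pair of libraries high in atrial transcripts was chosen after seeing the data.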

Additional observations from a re-analysis of the deposited data

Results flagged for a closer look

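The response of Lpar6, a lysophosphatidic acid receptor gene on the list of endothelial G protein-coupled receptors, differed between genotypes by edgeR's interaction test. The DOX fold change in KO minus the one in WT was 1.12 on the log2 scale (SE 0.19, adjusted p = 0.0435). It averaged 9.39 CPM in KO DOX and 7.97 CPM in KO vehicle hearts, and 6.05 CPM in WT DOX and 11.2 CPM in WT vehicle hearts. In KO hearts it stood at 8.94 to 10.3 CPM after DOX and at 7.79 to 8.27 CPM with vehicle. All 3 WT DOX libraries lay below all WT vehicle libraries, as for 15.8% of tested genes. Its adjusted p ranged up to 0.166 over the fits that left out 1 library.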

How the results depend on the processing

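The log2 fold changes of Aplnr and Apln kept their sign under every alternative run. Leaving out 1 library at a time gave -4.28 to -2.69 for Aplnr and -2.95 to -1.61 for Apln with DOX in WT. With DOX in KO the ranges were -0.43 to -0.07 and -0.89 to -0.37, and between KO and WT under vehicle -1.15 to -0.93 and -0.63 to -0.46. Under DOX they were 1.46 to 3.04 and 0.44 to 1.78, and for the interaction 2.48 to 4.07 and 0.99 to 2.33. With limma-voom and sample quality weights, Aplnr was 2.72 and Apln 1.64 between KO and WT under DOX, the interaction was 3.48 for Aplnr and 2.08 for Apln, and Apln was -2.62 with DOX in WT.

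Counts of called genes depended more on the processing, and the cause was not tested. The share of all genes called moved too: for DOX in WT it was 18.6%, and 11.8% with no filter, 37.8% with limma-voom and 0.141% with only the groups compared. For KO against WT under vehicle it was 2.88%, and 7.06% with no filter, 11.4% with DESeq2, 35.1% with limma-voom, 1.57% with only the groups compared, 1.43% with the title suffix and 0.457% without the pair of libraries high in atrial transcripts. With no filter it was 1.04% for DOX in KO, 3.9% for KO against WT under DOX and 3.7% for the interaction. Given as pathway then endothelial genes, the counts for DOX in WT were 19 and 18 with no filter, 25 and 18 with limma-voom, 0 and 0 with only the groups compared, and 1 to 17 and 1 to 11 without 1 library. For DOX in KO they were 2 and 3 with no filter and 1 and 1 with limma-voom, DESeq2 called 1 pathway gene, and leaving out 1 library gave 0 and 0 to 1. For KO against WT under vehicle they were 13 and 11 with no filter, 20 and 19 with limma-voom, 3 and 2 when the title suffix entered the model, and 0 to 11 and 0 to 8 without 1 library. There DESeq2 called 11 endothelial genes, the groups compared alone gave 3 pathway genes, and the fit without the pair of libraries high in atrial transcripts gave 0. For KO against WT under DOX they were 7 and 7 with no filter and 3 and 2 with limma-voom, DESeq2 called 3 pathway genes, 1 endothelial gene passed without the pair, and leaving out 1 library gave 0 to 2 and 0 to 1. For the interaction they were 12 and 12 with no filter, 5 and 5 with DESeq2, 14 and 10 with limma-voom, and 0 and 1 without the pair. The title suffix gave 0 pathway genes, and leaving out 1 library gave 0 to 5 and 0 to 4.

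Of 28 calls of pathway and endothelial genes, 2 held in every fit that left out 1 library, those of Lpar6 and Fabp4 for DOX in WT, and 0 changed sign. Over all genes, DOX in WT had 1386 higher and 1357 lower calls, 1845 and 941 without TMM scaling, 3457 in all with DESeq2, 5575 with limma-voom, 1595 with the title suffix and 20 with only the groups compared. Apela had no fold change in the fits whose filter removed it. The fit with no filter kept every gene with a count, Apela among them, and its value there is not reported here. No paired analysis was possible because the groups share no replicate numbers.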
